A study of Mus musculus with 12 samples.

Results

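The genes described here encode matrix metalloproteinases (MMPs), the ADAMTS proteases, the ADAMTS-like proteins and the tissue inhibitors of metalloproteinases (TIMPs). They were taken as every gene probe whose name in the array files starts with Mmp, Adamts, Adamtsl or Timp followed by a digit. That gave 73 probes for 47 genes of 41174 gene probes with 30038 names on the array: 27 for MMPs, 33 for ADAMTS, 8 for ADAMTS-like proteins and 5 for TIMPs. Of these, 44 probes for 32 genes were well above background on 6 or more arrays and were tested. The other 29 were not, and 20 of them were at background on every array.

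Together these families set how fast the extracellular matrix around muscle fibres is rebuilt. MMPs cut collagens, gelatin and many other matrix and cell-surface proteins, while ADAMTS proteases cut proteoglycans such as versican, trim the ends of procollagens or cut the cartilage protein COMP. The ADAMTS-like proteins share the carboxy-terminal modules of ADAMTS proteases but lack the protease domain and bind fibrillin microfibrils, and TIMPs are secreted proteins that block the active site of MMPs and of some ADAM and ADAMTS proteases.

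RNA from the quadriceps muscle of 12 male C57BL/6J mice aged 13 weeks was hybridised to one-colour Agilent arrays, 1 mouse per array. In the exercised group, 6 mice had run on a motor-driven treadmill for 4 weeks and were sampled 3 hours after the final session, and the 6 sedentary mice had not trained. The labels state no clock time of sampling, and the part of time of day in the differences was not tested. Mice are named by group and by the set and animal number in their titles, so that s2m3 is animal 3 of set 2. Levels below are log2 processed intensity minus the 75th percentile of the same array, so 0 is that percentile, and differences are exercised minus sedentary on that log2 scale. A level belongs to its probe and was not compared between probes.

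Between 21704 and 25229 probes per array were well above background. The 75th percentile of intensity ranged from 167 to 237. Exercised s2m3 stood apart from the other 11 mice. In it 6 of 7 measured neutrophil marker genes were above background against 1 to 3 in every other mouse. The bone markers Bglap and Ibsp lay at 2.13 and -0.70 there, against -4.08 or lower and -6.29 or lower elsewhere. Sedentary s2m2 had the lowest mean level of the tendon markers, -1.58 relative to the mean of all mice, and the second highest levels of the neutrophil genes S100a8 and S100a9. The arrays were on 3 slides that held 1, 3 and 2 exercised mice and 3, 1 and 2 sedentary mice. Values with the slide as a block in the fit, or without single mice, are given where they change a result.

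The probes that carried the differences described below are shown by their first 30 of 60 bases, written 5′ to 3′ in the sense of the transcript, with their positions on mouse build mm9. Adamts5 appears with both of its probes, because only the brighter was called.
Timp3 (chr10:85811696-85811755, plus strand): atagtgacttttggggatagatctgtctgg
Timp4 (chr6:115196120-115196179, minus strand): ccagcaaatggaggctgtggggcatgtgac
Adamts9 (chr6:92723051-92723110, minus strand): tcagcatactcagagaacgacaggagatcg
Adamtsl2 (chr2:26964005-26964064, plus strand): cttccttggacacccactctgcaggggatg
Adamtsl4 (chr3:95480524-95480583, minus strand): cctgtgtatgtttatcacttccacaaaagc
Adamts5, brighter probe (chr16:85862677-85862736, minus strand): gagtcgaattatgggcagaatctgctctct
Adamts5, dimmer probe (chr16:85859201-85859260, minus strand): tttgtgtatttctaataccagtcataacct

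The muscle of exercised mice had more RNA for TIMP3, TIMP4, ADAMTS9, ADAMTSL2 and ADAMTSL4 and less for ADAMTS5, and no MMP probe passed the test, although Mmp11 and 1 Mmp14 probe did under some alternatives described below. Under limma with Benjamini-Hochberg adjustment over all 22916 probes tested and a threshold of 0.05, 6 of the 44 probes were called, 5 higher and 1 lower. Over all probes tested, 3.31% were called, 1.81% higher and 1.51% lower. The groups did not overlap for 5 of the 44 probes, beside 2.89% of all probes. The median difference was 0.05 over the 44 probes and -0.02 over all probes tested. With the slide as a block, 3 of the 44 stayed called (Timp3, Timp4 and Adamts9, all higher), beside 1.93% of all probes. Since RNA was taken from whole muscle, more cells of a type and more RNA per cell cannot be told apart for any of these genes.

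**Figure D1:**
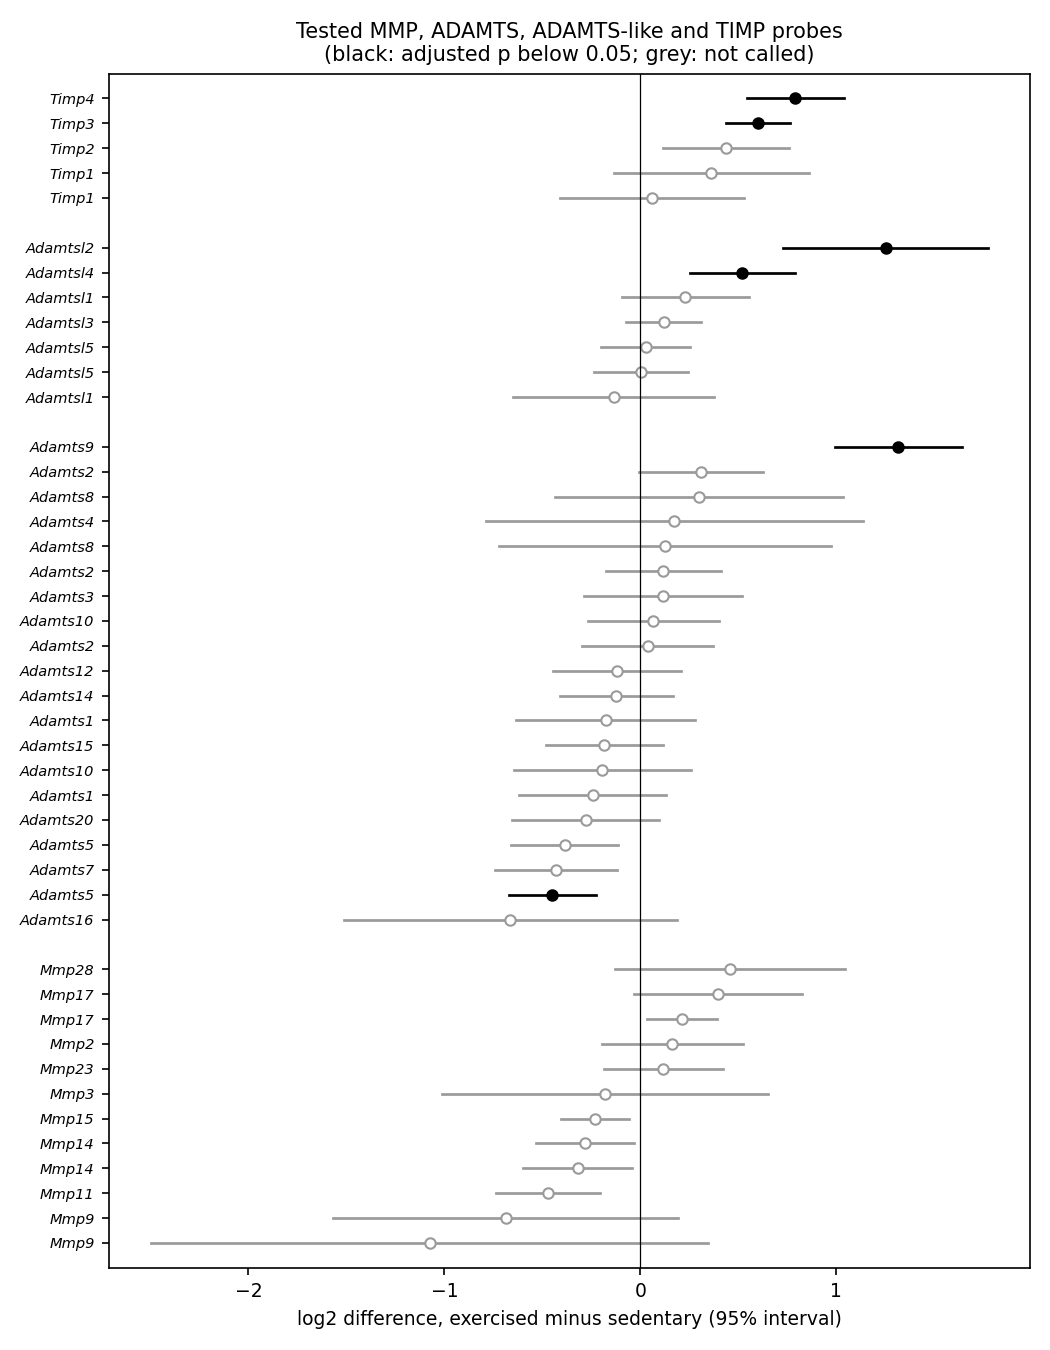
Log2 difference (exercised minus sedentary, x axis) with its 95% interval for the 44 tested probes, grouped by family and sorted by size. Black points mark the 6 probes with an adjusted p below 0.05: Timp4, Timp3, Adamtsl2, Adamtsl4 and Adamts9 to the right of 0 and 1 Adamts5 probe to the left, while all 12 MMP probes are grey.

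All 5 probes for the 4 inhibitors had a difference above 0, beside 10155 of all 22916 probes tested, and Timp3 and Timp4 were called. Both Timp1 probes changed sign under some alternatives. TIMP3 differs from the other TIMPs by binding to the matrix, and it also inhibits ADAM17 and several ADAMTS proteases. The Timp3 level was 3.30 at the lowest, 3.38 at the median and 3.62 at the highest in sedentary mice, and 3.89, 4.02 and 4.16 in exercised mice. Every exercised mouse was above every sedentary mouse. The difference was 0.60 ± 0.08 (SE, n = 6 and 6), a 1.52-fold rise (95% interval 1.35 to 1.70; limma adjusted p = 0.00090, and 0.0084 with the slide as a block). Timp3 also had the smallest residual spread of all 44 probes, with an SD of 0.12.

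TIMP4 is the inhibitor found mainly in heart, skeletal muscle, fat and brain. Its level was 1.52, 1.94 and 2.06 (lowest, median, highest) in sedentary mice and 2.31, 2.68 and 2.87 in exercised mice. Again the groups did not overlap, and exercised s2m1 was the lowest of its group. The difference was 0.79 ± 0.11 (SE), 1.73-fold (95% interval 1.46 to 2.05; limma adjusted p = 0.0024, and 0.015 with the slide block).

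The other inhibitors were not called. TIMP2 both inhibits MMPs and helps membrane-bound MMP14 to activate proMMP2. Timp2 levels were 4.56, 5.07 and 5.52 in sedentary and 5.23, 5.45 and 5.89 in exercised mice. The groups overlapped through sedentary s1m1, the highest sedentary mouse, and the difference of 0.44 ± 0.15 did not pass the test (limma adjusted p = 0.15). TIMP1, the inhibitor best known for its induction by cytokines and injury, was read by a pair of probes. The brighter Timp1 probe had levels from -0.67 to 0.29 in sedentary and from -0.80 to 0.45 in exercised mice, so the ranges nearly coincided (difference 0.06, 95% interval -0.41 to 0.53, limma adjusted p = 0.93). The dimmer probe had a difference of 0.36 (95% interval -0.14 to 0.86, limma adjusted p = 0.51).

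**Figure D2:**
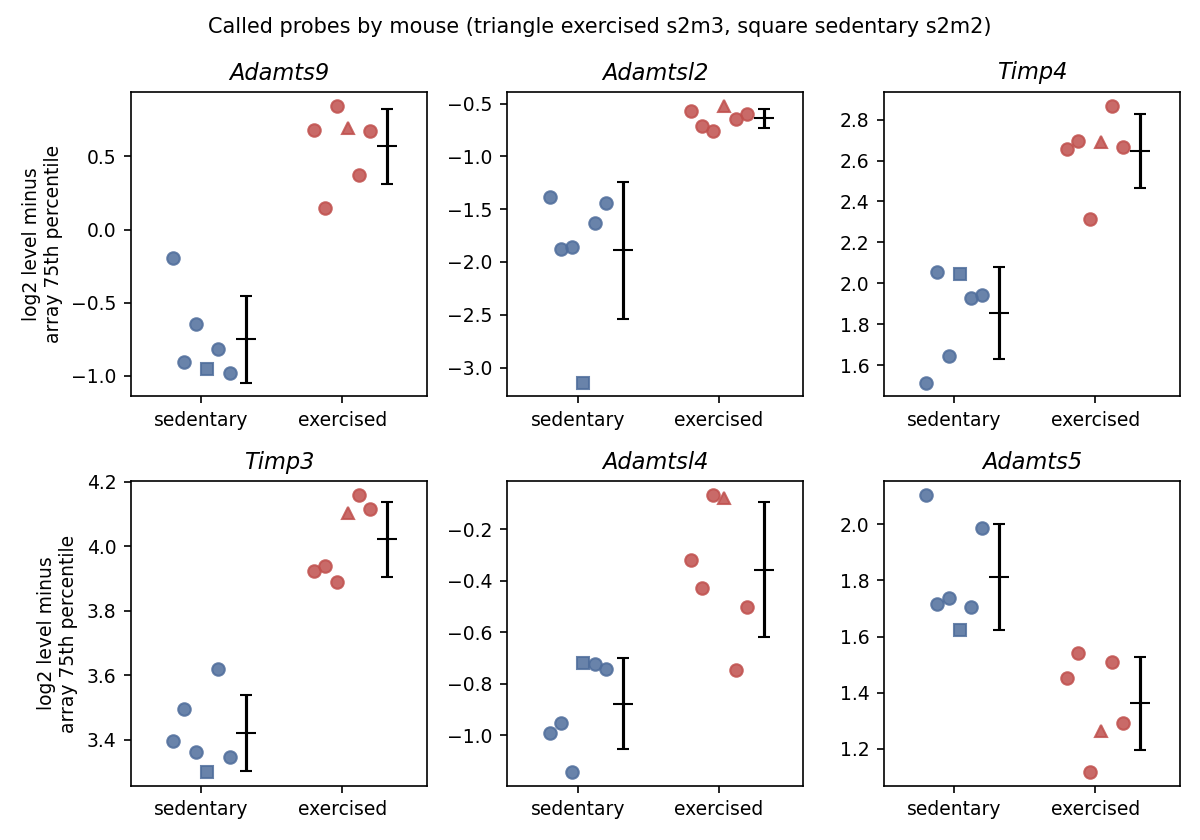
Level of each called probe (log2 processed intensity minus the array's 75th percentile, y axis) in the 6 sedentary (blue) and 6 exercised (red) mice, with the group mean and SD in black; panels have their own scales. The groups do not overlap for Adamts9, Adamtsl2, Timp4, Timp3 and Adamts5, and overlap for Adamtsl4 through 1 exercised mouse at -0.75; the square at -3.14 is sedentary s2m2.

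Of the 5 ADAMTS-like genes, all tested, Adamtsl2 and Adamtsl4 rose and the other 3 were not called. A difference above 0 was found for 6 of the 7 tested probes, beside 10155 of all 22916. ADAMTSL2 binds fibrillin-1 and the latent TGF-beta binding protein LTBP1, and its loss causes geleophysic dysplasia in people. Adamtsl2 levels were -3.14, -1.75 and -1.38 in sedentary mice and -0.76, -0.63 and -0.52 in exercised mice. All exercised mice lay within a narrow band (SD 0.09) above every sedentary mouse (SD 0.65), and sedentary s2m2 lay far below the rest of its group. The difference was 1.25 ± 0.24 (SE), 2.38-fold (95% interval 1.66 to 3.42; limma adjusted p = 0.014). Without sedentary s2m2 it was 1.00, with a limma adjusted p of 0.00045. With the slide as a block the adjusted p was 0.055, which misses the threshold. The level of the tendon markers, lowest in sedentary s2m2, was added as a covariate in an alternative chosen after the data were seen. The Adamtsl2 difference was then 0.70 and its limma adjusted p was 0.11. Calls over all probes also fell in that fit, to 173 higher and 204 lower, from 414 and 345.

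ADAMTSL4 binds fibrillin-1 microfibrils and is known for its role in the fibres that hold the lens. Adamtsl4 levels were -1.14, -0.85 and -0.72 in sedentary mice and -0.75, -0.37 and -0.07 in exercised mice. Exercised s2m4, at -0.75, lay within the sedentary range. The difference was 0.52 ± 0.12 (SE), 1.43-fold (95% interval 1.19 to 1.73; limma adjusted p = 0.038, and 0.13 with the slide block). The call lay close to the threshold. It held when exercised s2m4 or sedentary s2m5 was left out. Leaving out any of the other 10 mice gave limma adjusted p-values of 0.0504 to 0.0851. In the 12 fits with 1 mouse left out, the difference stayed from 0.46 to 0.60. The 5 uncalled probes, for Adamtsl1, Adamtsl3 and Adamtsl5, had differences from -0.14 to 0.23.

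Among 10 tested probes for 7 genes of proteoglycan-cutting ADAMTS, the Adamts9 probe rose, 1 Adamts5 probe fell and the other 8 were not called. ADAMTS9 is a secreted protease that cleaves versican and aggrecan. Adamts9 levels were -0.98, -0.86 and -0.20 in sedentary mice and 0.15, 0.68 and 0.85 in exercised mice. The groups did not overlap, with sedentary s1m1 the highest of its group and exercised s1m5 the lowest of its own. The difference was 1.32 ± 0.15 (SE), the largest among the 44 probes and a 2.49-fold rise (95% interval 1.99 to 3.12; limma adjusted p = 0.00045, and 0.0051 with the slide block). The second Adamts9 probe was at background on all 12 arrays and gave no reading of the gene.

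ADAMTS5 cleaves aggrecan and versican and is the main aggrecanase of mouse cartilage. The brighter Adamts5 probe was at 1.62, 1.73 and 2.10 in sedentary mice and at 1.12, 1.37 and 1.54 in exercised mice. Every exercised mouse was below every sedentary mouse, but the gap between the groups was narrow. The probe fell by 0.45 on the log2 scale (SE 0.10), which is 1.36-fold (95% interval 1.17 to 1.59; limma adjusted p = 0.031, and 0.074 with the slide block). The call was lost, with limma adjusted p-values of 0.0527 to 0.0659, when any of 6 mice was left out: exercised s2m1, s2m3 or s2m5, or sedentary s1m1, s1m6 or s2m5. The dimmer Adamts5 probe differed by -0.39 ± 0.13 (SE) with overlapping groups and was not called (limma adjusted p = 0.13).

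The remaining proteoglycanases were not called. ADAMTS1, a versicanase that also binds VEGF, had differences of -0.24 and -0.18 at its pair of probes, whose intervals of -0.62 to 0.13 and -0.64 to 0.28 included 0. ADAMTS4, an aggrecanase, had one of the widest ranges among mice: from -2.52 to -0.42 in sedentary and from -2.77 to -0.49 in exercised mice. Its difference was 0.17 with an interval of -0.79 to 1.14. ADAMTS15, which cleaves versican, differed by -0.18 (interval -0.48 to 0.12). Probes for Adamts8 and Adamts20 had differences from -0.28 to 0.30.

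Among the procollagen N-proteinases, which remove the amino-terminal propeptide of fibrillar collagens, 0 of 5 tested probes for Adamts2, Adamts3 and Adamts14 were called by limma, and 0 had an unadjusted p under 0.05. The 3 Adamts2 probes all differed upward, by 0.04, 0.12 and 0.31 (limma adjusted p = 0.94, 0.75 and 0.33). Each of them changed sign under at least 1 alternative. Adamts7, which with Adamts12 encodes a protease that cuts COMP, had a difference of -0.43 ± 0.14 (SE). Its levels were -3.19, -3.08 and -2.56 in sedentary and -3.86, -3.42 and -3.07 in exercised mice, with overlap, and it did not pass the test (limma adjusted p = 0.15). Adamts12, Adamts10 and Adamts16 gave 4 tested probes with differences from -0.66 to 0.07. Adamts13, Adamts18 and Adamts19 had no tested probe.

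No MMP was called: of 27 probes for 21 genes, 12 probes for 9 genes were tested, with differences from -1.08 to 0.46. At an unadjusted p under 0.05, 4 of the 12 lay lower (Mmp11, both Mmp14 probes and Mmp15) and 1 higher (1 Mmp17 probe), beside 15.7% of all probes in either direction. MMP14 is the membrane-anchored collagenase that activates proMMP2. The brighter Mmp14 probe was at 1.28, 1.67 and 1.89 in sedentary and 1.15, 1.36 and 1.64 in exercised mice. The groups overlapped over most of their range. Differences at the 2 Mmp14 probes were -0.28 ± 0.12 and -0.32 ± 0.13 (SE; limma adjusted p = 0.25 and 0.24). MMP15, another membrane-anchored MMP, differed by -0.23 ± 0.08 (limma adjusted p = 0.16). MMP17, which is held to the membrane by a lipid anchor, differed by 0.21 ± 0.08 and 0.40 ± 0.20 at its pair of probes (limma adjusted p = 0.21 and 0.36).

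MMP11, a stromelysin with little activity on most matrix proteins, had the smallest adjusted p of the MMPs. Mmp11 levels were -0.91, -0.79 and -0.36 in sedentary and -1.38, -1.20 and -0.80 in exercised mice. Only exercised s2m4 reached into the sedentary range. The difference was -0.47 ± 0.12 (SE), with a limma adjusted p of 0.059, and leaving out exercised s2m4 gave -0.54 and 0.028. Mmp11 was also called with both stricter filters on dim probes (limma adjusted p = 0.049 and 0.046), the intensity trend (0.047), array weights (0.040) and the normexp correction with limited background (0.047). It also passed the looser threshold of 0.10. It was not called under the remaining alternatives, with 0.089 under the slide block. MMP3, a stromelysin that also activates other proMMPs, ranged widely in both groups, from -2.71 to -0.67 in sedentary and from -3.03 to -1.23 in exercised mice (difference -0.18, interval -1.01 to 0.65).

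The gelatinases were not called either. MMP2, the constitutive gelatinase of connective tissue cells, was at 1.46, 2.29 and 2.54 in sedentary and 1.98, 2.40 and 2.58 in exercised mice. Sedentary s2m2 alone lay below 1.98, and the other mice of both groups were interspersed. The difference was 0.16 (interval -0.19 to 0.52; limma adjusted p = 0.71), and 0.02 without sedentary s2m2. MMP9, the gelatinase stored by neutrophils, was read by a pair of probes with differences of -1.08 and -0.69, whose intervals of -2.50 to 0.35 and -1.57 to 0.19 included 0. The first rested largely on 1 spot. In sedentary s1m5 that spot had an intensity of 579, while the 10 spots of the other Mmp9 probe on the same array read 13.6 to 18.3. Without that mouse the difference was -0.43. Sedentary s1m1 was high at both probes, at 112 and, for the median of the 10 spots, 84.1.

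**Figure D3:**
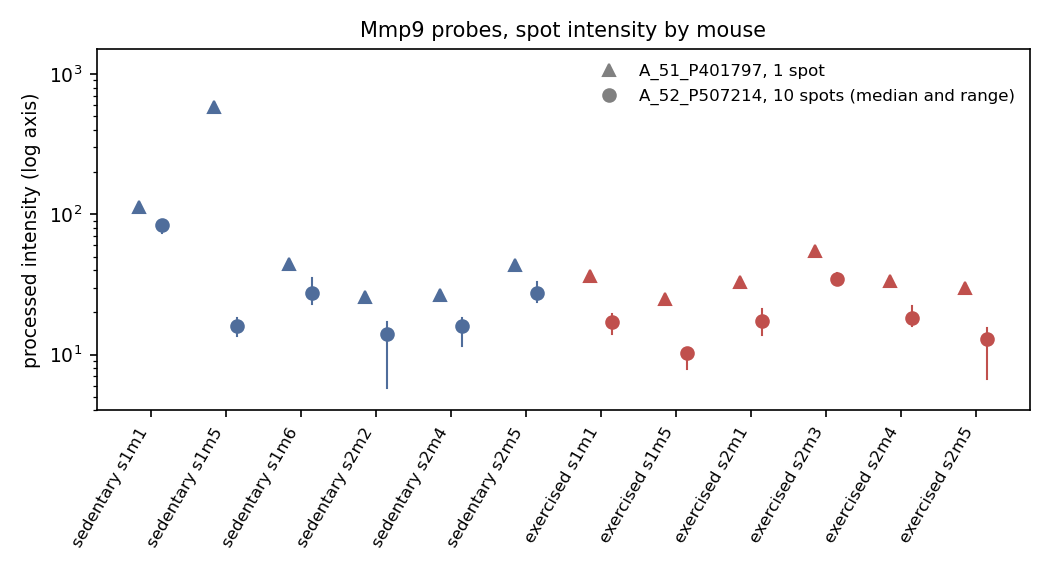
Processed intensity (log axis) of both Mmp9 probes in each mouse; triangles are the probe with 1 spot, circles and bars the median and range of the 10 spots of the other probe. The triangle of sedentary s1m5 at 579 has no counterpart in the 10 spots beside it, whereas both probes are raised in sedentary s1m1.

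The collagenases Mmp1a, Mmp8 and Mmp13 had no tested probe. The Mmp8 probe, for the collagenase of neutrophil granules, was well above background only in exercised s2m3, at -2.77, and at -6.26 or lower in the other 11 mice. The Mmp13 probe, for the collagenase of cartilage and bone, did the same, at -2.74 against -6.25 or lower. In that mouse the neutrophil genes S100a9 and Camp were at 5.65 and 1.52, against at most 2.74 and -5.71 in any other mouse, and Bglap and Ibsp were high as given above. Cartilage markers were mixed. The brighter Col2a1 probe, for cartilage collagen, was at 3.36 there and at most 1.11 elsewhere, and another at 2.86 against at most 0.20. The tested Sox9 probes were also highest there, at -1.47 and -0.98, against at most -1.83 and -1.41. Col9a1 was at -3.02 there, close to the -3.14 of sedentary s2m4. Matn1 and the remaining Col2a1 probe were at background on every array. Whether neutrophils or cartilage and bone cells contributed Mmp8 and Mmp13 RNA was not tested. Sedentary s2m2, the next in S100a9 at 2.74, had Mmp8 at -6.57. In sedentary s2m2 S100a8 was at -0.98, Camp was at -5.71 and not above background, and 3 of 7 neutrophil marker genes were above background. Without exercised s2m3, 4 members were called higher and 0 lower, beside 339 and 280 of all probes. Adamtsl4 and Adamts5 then missed the threshold (limma adjusted p = 0.075 and 0.064), while Timp3, Timp4, Adamts9 and Adamtsl2 differed by 0.58, 0.78, 1.29 and 1.23. Mmp7, Mmp10, Mmp12, Mmp16, Mmp19, Mmp20, Mmp21, Mmp24 and Mmp25 also had no tested probe.

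**Figure D4:**
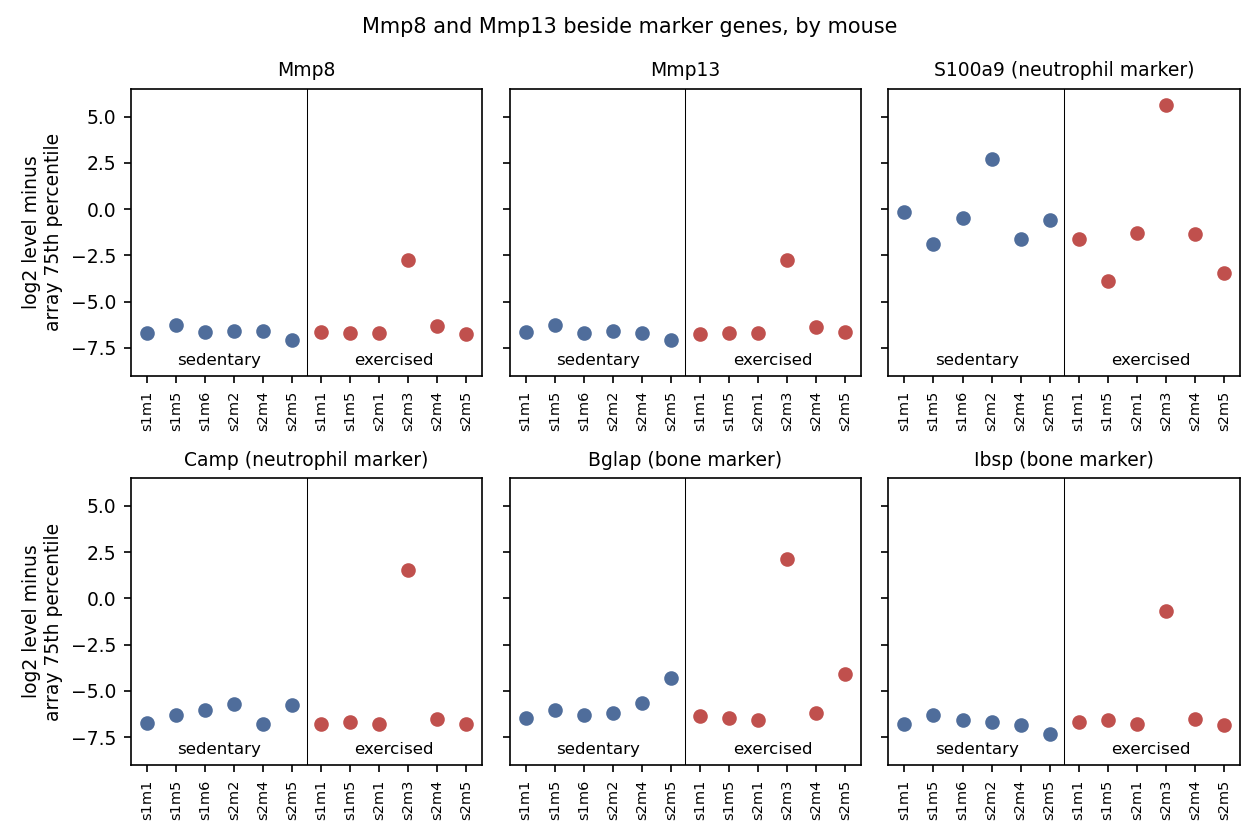
Level (log2 processed intensity minus the array's 75th percentile) of Mmp8, Mmp13, the neutrophil markers S100a9 and Camp and the bone markers Bglap and Ibsp in each mouse, sedentary in blue and exercised in red. Exercised s2m3 is the highest point in all 6 panels, at -2.77 for Mmp8 and -2.74 for Mmp13.

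The spread among mice of a group was read from the residual SD of the fit. The median residual SD was 0.28 over the 44 probes and 0.19 over all probes tested, and 9 of the 44 (20.5%) exceeded 0.45, the 90th percentile of all probes. The 9 included both Mmp9 probes, Mmp3, Adamts4, both Adamts8 probes and the called Adamtsl2 probe (0.46). Of 11 genes with several tested probes, 9 had differences of 1 sign and 2, Adamts10 and Adamtsl1, did not. Whether the effect differed between the title sets was tested with limma's interaction term, which gave 0 calls among the 44 (2 at an unadjusted p under 0.05) and 0 among all 22916 (1931, or 8.43%, unadjusted).

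Within each slide, all 6 called probes kept their sign. For all but Adamtsl4 this had to be so, because their groups did not overlap over the full set of arrays. Slide 1 held 1 exercised mouse and slide 2 held 1 sedentary mouse, so the differences there rest on that mouse. Adamts9 differed by 1.53, 1.54 and 0.92 on slides 1, 2 and 3, Adamtsl2 by 1.55, 1.23 and 0.87, and Adamtsl4 by 0.36, 0.66 and 0.48. Timp4 differed by 0.79, 0.57 and 0.95, and Timp3 by 0.78, 0.55 and 0.42. Adamts5 differed by -0.49, -0.42 and -0.41. With 4 arrays per slide, 0 members were called within a single slide.

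**Figure D5:**
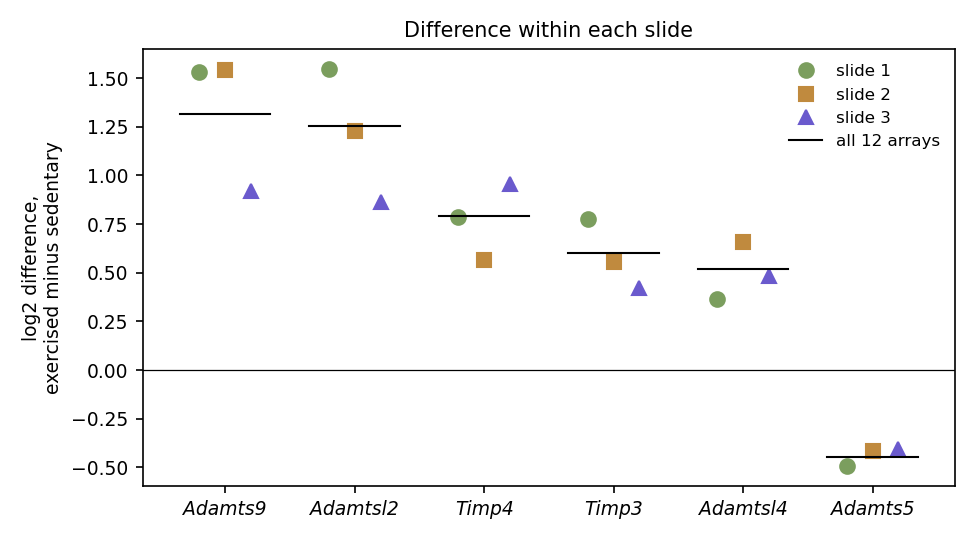
Log2 difference (exercised minus sedentary, y axis) of each called probe within slide 1 (circle), slide 2 (square) and slide 3 (triangle), with the value over all 12 arrays as a line. All 18 points lie on the same side of 0 as their line. This had to hold for every probe but Adamtsl4, since the groups of the others do not overlap. Adamts9 ranges from 0.92 to 1.54.

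The promoters of called genes were read from the RefSeq table on build GRCm38.p6, which held 33 of the 47 genes; Adamts5 was not among them. The 250 bases before the listed start were searched on both strands for TGANTCA (the AP-1 site), TGACGTCA (the cAMP response element), AGAACA (part of the glucocorticoid response element), CACGTG (the E-box of clock factors) and TATAAA (the TATA box), none of which contains another. Of 32851 promoters, 6.75%, 1.55%, 16.1%, 6.02% and 12.4% held them in that order. Of the 36 promoters listed for the 33 genes, 7, 0, 5, 1 and 9 did. The 7 with the AP-1 site were those of Mmp1a, Mmp3, Mmp7, Mmp10, Mmp12, Mmp13 and Mmp20. All of these genes lie on chromosome 9, and only Mmp3 among them was tested. The promoters of the 4 members called in every leave-one-out fit are shown with any match in capitals. Mmp3 and Mmp13 are shown beside them, as they lie near each other on chromosome 9 and hold both AP-1 and TATA letters.
Timp3 (chr10:86300162-86300411, plus strand): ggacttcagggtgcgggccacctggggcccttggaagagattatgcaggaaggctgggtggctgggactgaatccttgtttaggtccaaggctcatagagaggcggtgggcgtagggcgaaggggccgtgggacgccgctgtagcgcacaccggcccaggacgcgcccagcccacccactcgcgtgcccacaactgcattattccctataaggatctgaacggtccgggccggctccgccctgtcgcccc
Timp4 (chr6:115252206-115252455, minus strand): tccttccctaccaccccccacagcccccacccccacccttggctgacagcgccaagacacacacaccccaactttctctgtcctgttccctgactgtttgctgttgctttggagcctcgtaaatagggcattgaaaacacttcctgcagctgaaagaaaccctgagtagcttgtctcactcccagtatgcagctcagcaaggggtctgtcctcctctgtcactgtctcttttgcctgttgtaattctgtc
Adamts9 (chr6:92943535-92943784, minus strand): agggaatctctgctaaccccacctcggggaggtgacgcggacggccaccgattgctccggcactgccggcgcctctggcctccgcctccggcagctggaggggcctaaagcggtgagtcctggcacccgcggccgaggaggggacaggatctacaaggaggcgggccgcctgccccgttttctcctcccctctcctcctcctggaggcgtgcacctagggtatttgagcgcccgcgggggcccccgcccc
Adamtsl2 (chr2:27079129-27079378, plus strand): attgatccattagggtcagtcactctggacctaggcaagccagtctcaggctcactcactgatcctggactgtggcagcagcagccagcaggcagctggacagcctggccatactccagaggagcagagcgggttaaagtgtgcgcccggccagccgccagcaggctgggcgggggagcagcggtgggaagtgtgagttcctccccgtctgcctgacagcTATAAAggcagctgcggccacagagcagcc
Mmp3 (chr9:7445572-7445821, plus strand): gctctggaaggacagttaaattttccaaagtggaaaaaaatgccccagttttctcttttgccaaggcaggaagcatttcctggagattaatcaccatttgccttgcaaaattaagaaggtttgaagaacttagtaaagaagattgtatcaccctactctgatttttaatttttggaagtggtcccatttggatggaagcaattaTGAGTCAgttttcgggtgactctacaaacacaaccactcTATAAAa
Mmp13 (chr9:7272264-7272513, plus strand): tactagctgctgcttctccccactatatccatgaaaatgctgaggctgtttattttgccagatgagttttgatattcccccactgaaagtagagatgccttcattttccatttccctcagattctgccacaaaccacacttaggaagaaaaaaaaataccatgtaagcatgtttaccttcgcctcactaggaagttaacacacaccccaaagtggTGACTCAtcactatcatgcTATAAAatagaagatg

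Adamtsl2 has TATAAA from base -30 to -25 before the start. Timp3, Timp4 and Adamts9, which rose in exercised mice, and Adamtsl4 held none of the 5 motifs in this window. Mmp13 holds TGACTCA at -35 to -29 and Mmp3 holds TGAGTCA at -46 to -40. Mmp3 was not called, and Mmp13 had no tested probe.

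Other genes of the same pathway were read in the same fit, in which 3.31% of all probes were called. Their lists were written with earlier results of these data known, so the counts below do not describe an independent choice of genes. Of 16 tested probes for related metzincins, 2 fell and 0 rose. Both read Adam19, a membrane-anchored ADAM protease, which fell by 1.05 and 0.89 on the log2 scale (limma adjusted p = 0.0085 and 0.0089, and 0.024 and 0.018 with the slide block). Of 18 tested probes for other inhibitors, activators and receptors, 1 rose: Thbs1, thrombospondin-1, by 1.56 ± 0.35 (SE; limma adjusted p = 0.030, and 0.12 with the slide block). Among 26 tested probes for inducers and transcription factors of these families, 4 rose and 2 fell. They were Nr4a2 (8.61-fold), Atf3 (8.17-fold) and both Cebpb probes (2.15-fold and 1.97-fold), which encode immediate-early and stress transcription factors, and Ets2 (1.47-fold lower) and 1 of 4 Ets1 probes (1.52-fold lower), which encode ETS factors. With the slide block the Ets1 probe missed the threshold (limma adjusted p = 0.071). Under limma 0 of 9 tested probes for plasminogen activators and their inhibitors and 0 of 35 for matrix substrates were called, at differences from -0.25 to 0.75 and from -0.41 to 1.1.

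Markers of other cells, from lists also written with earlier results known, were read beside these genes. Over all probes 3.31% were called, and 1.93% with the slide as a block. All 9 tendon marker probes, for 8 genes, had a difference above 0 (median 0.92), beside 10155 of all 22916 probes, and 0 of the 9 were called by limma. Their mean level, relative to the mean of all mice, ranged from -0.39 to 1.12 in exercised and from -1.58 to 0.05 in sedentary mice. With that level as a covariate, 3 members were called higher and 2 lower, beside 173 and 204 of all probes. The lower ones were the brighter Adamts5 probe (-0.57) and the dimmer Mmp14 probe (-0.57), with limma adjusted p-values of 0.043 and 0.044. The differences of the higher ones were 0.50 for Timp3, 0.78 for Timp4 and 1.24 for Adamts9, all called (limma adjusted p = 0.015, 0.027 and 0.0091). Adamtsl2 and Adamtsl4 were not called in that fit, with differences of 0.70 and 0.60 (limma adjusted p = 0.11 and 0.10). Endothelial markers gave 1 higher and 2 lower calls of 10 probes (1 Tek probe higher, Kdr and Egfl7 lower). The brighter Tek probe differed by -0.27 and was not called (limma adjusted p = 0.10), and Egfl7 missed the threshold with the slide block (0.077). Smooth muscle and pericyte markers gave 4 higher and 2 lower of 15, and 1 higher (Cnn1) and 2 lower (both Kcnj8 probes) with the slide block. Satellite cell markers gave 2 higher calls of 6, both for Sdc4. Markers of muscle fibres, fibro-adipogenic progenitors, macrophages, neutrophils, adipocytes, Schwann cells, cartilage and bone gave 0 limma calls, and all 11 muscle fibre probes were bright enough to be tested. Of 8 neutrophil probes 1 was, that of S100a9. The part of these cells in the differences was not tested.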

How the data were processed

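Each deposited scanner file gives the spot intensity of 1 array. Per the file headers, the authors extracted the arrays with Agilent Feature Extraction 10.5.1.1, which subtracted local background and detrended each array without scaling between arrays; the submitters' processing notes name version 9.1. The deposited value table holds the same processed intensity on a linear scale.

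The log2 of the processed signal minus each array's 75th percentile was used. Spots marked as outliers (0.213%) were left out and spots of a probe averaged. Probes well above background on 6 or more of 12 arrays were tested with limma 3.58.1 (lmFit, eBayes; R 4.3.3) and Benjamini-Hochberg adjustment, called at 0.05. The procedure was tested on simulated data with independent noise for each probe. Those data held no slide effect and no outlying mouse, so they cannot show how either affects the calls. Nothing beyond the animal numbers says that the samples were separate preparations, and 6 arrays a group limit the precision; no depth applies.

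The members, lists, named probes and tests were chosen with earlier results of these data known. Named with values were all called probes, the 4 smallest unadjusted p-values in each direction among the uncalled, the tested probes of a list of members, and called pathway genes. Mmp8 and other features outside that rule were picked with their values known. The level of a marker list is the mean over its tested probes of each mouse's deviation from the probe's mean. Alternatives were scaling, background correction, filter, gene-level values, slide, title set, variance model, left-out mice and shared animal numbers.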

Additional observations from a re-analysis of the deposited data

Results flagged for a closer look

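Single mice stood apart from the rest of their group in 7 of 88 tests (7.95%; 44 probes in 6 mice of each group), where Dixon's rule is expected to mark about 5% by chance. These probes were chosen after their values were seen. Sedentary s2m2 was low for the Adamtsl2 probe (-3.14), the brighter Adamts8 probe (-2.25) and Mmp2 (1.46), and it also had the lowest mean level of the tendon markers (-1.58). Sedentary s1m1 was high for Mmp23 (-0.496) and for the dimmer Adamts10 probe (-2.72). Exercised s2m4 was low for Adamts16 (-5.93) and high for the dimmer Adamts5 probe (-3.23).

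Of the probes too dim to be tested, 4 were well above background in exercised s2m3 and in no sedentary mouse: Mmp8 (-2.77), Mmp13 (-2.74), an Mmp16 probe (-4.08) and an Adamts7 probe (-4.49).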

How the results depend on the processing

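The 5 probes called higher became 4 with the normexp correction when its background was limited (an alternative added after the data were seen) and 4 with the title set as a block. Quantile or median scaling, the deposited value table, the other filters, gene-level values and the other variance models kept 4 or 5. Plain normexp gave 0 higher and 0 lower, over all probes too. The slide block gave 3 and 0 (all probes 267 and 176). Single slides gave 0 and 0, with all probes at 0 and 0 on slides 1 and 3 and 1 and 9 on slide 2. The tendon covariate, also added later, gave 3 and 2 (all probes 173 and 204), the 2 being Adamts5 and Mmp14. The count of lower members, 1, was 0 with median scaling (all probes 218 lower) and with no filter (all probes 227 and 167). It was 2, Adamts5 and Mmp11, with both stricter filters, the intensity trend, array weights and a threshold of 0.10 (all probes 677 lower). With limited normexp it was 1, Mmp11. Leaving out 1 mouse gave 4 to 5 higher and 0 to 3 lower members, and 294 to 388 and 226 to 335 over all probes. The 226 came without sedentary s2m4, and the 3, both Adamts5 probes and Mmp11, without exercised s2m4. Why these counts moved was not tested.

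Same-numbered mice correlated by 0.14, -0.18, 0.09 and 0.24 in their deviations. Other pairings of an exercised and a sedentary mouse gave -0.29 to 0.15. With 4 pairs this cannot settle whether the mice were paired. The main fit did not take the numbers as pairs. With them as a replicate block over 8 arrays, 0 members were called higher and 0 lower (all probes 27 and 7).

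No called member changed sign. Among the other probes named with values, signs changed as follows, and the list covers only these. Under plain normexp these were Adamts2 (-0.060 and -0.0038 at 2 probes), Adamts4 (-0.084), Mmp17 (-0.028), Mmp3 (0.37) and Timp1 (-0.013), and under limited normexp Adamts2 (-0.026). On slide 1 it was Mmp17 (-0.19). On slide 2 they were Adamts2 (-0.10), Adamts4 (-0.56), the dimmer Adamts5 probe (0.052), Mmp3 (0.46) and Mmp9 (0.14). On slide 3 they were both Timp1 probes (-0.24 and -0.54). Mmp3 was at 0.0061 with the slide block and 0.25 with the replicate block. With the tendon covariate the values were -0.20 and -0.018 for Adamts2, -0.21 for Mmp2, 0.064 for Mmp3 and -0.20 and -0.40 for Timp1. Leaving out 1 mouse gave ranges that crossed 0 for 1 Adamts2 probe, Adamts4, Mmp3 and 1 Timp1 probe: -0.036 to 0.13, -0.037 to 0.47, -0.35 to 0.064 and -0.052 to 0.20. Dim probes such as Adamts16 and Mmp28, above background on 8 of 12 arrays, limit what their differences can show.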
